A study of Mus musculus with 6 samples.

Results

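Distal H3K27ac peaks of high-pigment (HP) B16 cells that lay close together in the genome were joined into domains, here called clustered distal domains. The peaks used were those of HP replicate 1 that overlapped a peak of HP replicate 2 by at least 1 bp, lay more than 3 kb from every transcription start site (TSS) of the GENCODE annotation, and lay on chromosomes 1 to 19 or X. Peaks with gaps of at most 12.5 kb were stitched, and a cluster of at least 3 peaks was a domain. Of 12504 such peaks, which formed 6904 clusters, 5367 (42.9%) fell into 1214 domains, 17.6% of the clusters. The remaining peaks were 4243 single peaks and 1447 pairs.

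B16 F10 is a mouse melanoma line that turns from pale to pigmented when it is seeded sparsely, here at 100 cells per cm2. On day 5 low-pigment (LP) and HP cells, with no treatment named in the labels, were separated by side scatter, a light-scattering measure of a cell's granularity, and H3K27ac was profiled by ChIP-seq in 2 replicates of each. Both populations carry the genotype of this single tumour line, and side scatter stands in for melanin in the sort. No label says that the replicates were separate cultures, so their spread may be technical. For peak calling the authors used IgG libraries of the unsorted culture as the control, 1 for each replicate number. The libraries held 11467942 and 15353176 fragments in LP and 11483830 and 14254904 in HP.

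H3K27ac is an acetyl group on lysine 27 of histone H3 that marks active promoters and enhancers. Long clusters of enhancers with this mark are often found around genes that define a cell type, and such clusters are known as stretch enhancers or super-enhancers. In pigment cells the best known of these genes are Mitf, the master regulator of melanocyte differentiation, and Sox10 and Pax3, the transcription factors that switch Mitf on. The domains described here were defined by peak positions and by no measure of enhancer activity.

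The labelled cell type was checked at gene starts. All 7 melanocyte markers (Mitf, Sox10, Tyr, Tyrp1, Dct, Pmel and Mlana) had a peak within 1 kb of a TSS in at least 1 library, and 5 had one in all 4 libraries. Of the keratinocyte, fibroblast, immune and endothelial markers, 5 of each, none had a peak in all 4 libraries. Of these 20 genes, 10 had a peak in at least 1 library (3 keratinocyte, 3 fibroblast, 1 immune and 3 endothelial) and 10 in none, and the fibroblast genes Pdgfra and Col1a1 had one in 3 libraries. Pileup is the number of fragments over a peak's summit, and scaled pileup is the pileup per 1000000 fragments of the library. The summed scaled pileup of the melanocyte markers was 9.85 and 10.3 in LP against 20.5 and 30.9 in HP, and that of the other lists was at most 2.09 in any library. Krt5, Dcn, Ptprc and Cdh5 were among those without a peak. What other cells contributed to the domains was not tested.

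The reference sequence at the summits of member peaks is shown for domains at Pax3, Mitf, Sox10 and Dct, because these genes carry the pigment cell biology of the set. Each sequence is 201 bases of the plus strand of GRCm38 (mm10), centred on the summit in HP replicate 1. Capitals mark a match, on either strand, to CATGTG or CACGTG (E-boxes, the class of site that MITF binds), CTTTGAT (a Lef1 and Tcf site), ACAAAG or ACAATG (sites of the Sox family) or TGANTCA (an AP-1 site). CACATG and ATCAAAG are the reverse complements of CATGTG and CTTTGAT.
Pax3 domain, highest pileup, chr1:78190021-78190221: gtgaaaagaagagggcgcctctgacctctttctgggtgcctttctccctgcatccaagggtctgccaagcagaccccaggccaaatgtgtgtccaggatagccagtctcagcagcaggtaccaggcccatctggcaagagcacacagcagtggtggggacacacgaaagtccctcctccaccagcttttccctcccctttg
Pax3 domain, most matches, chr1:78168072-78168272: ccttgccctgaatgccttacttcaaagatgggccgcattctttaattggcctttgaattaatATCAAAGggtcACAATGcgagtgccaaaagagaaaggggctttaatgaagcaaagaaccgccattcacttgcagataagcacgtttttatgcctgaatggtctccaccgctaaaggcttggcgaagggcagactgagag
Mitf domain of rank 49, highest pileup, chr6:97883076-97883276: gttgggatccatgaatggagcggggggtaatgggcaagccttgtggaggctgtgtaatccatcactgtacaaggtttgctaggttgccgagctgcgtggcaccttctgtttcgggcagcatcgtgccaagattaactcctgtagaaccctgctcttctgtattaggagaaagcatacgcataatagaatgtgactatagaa
Mitf domain of rank 33, most matches, chr6:97984613-97984813: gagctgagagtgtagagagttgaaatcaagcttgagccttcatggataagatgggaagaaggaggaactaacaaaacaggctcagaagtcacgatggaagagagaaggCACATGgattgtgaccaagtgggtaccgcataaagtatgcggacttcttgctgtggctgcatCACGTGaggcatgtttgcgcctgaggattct
Sox10 domain, highest pileup, chr15:79193634-79193834: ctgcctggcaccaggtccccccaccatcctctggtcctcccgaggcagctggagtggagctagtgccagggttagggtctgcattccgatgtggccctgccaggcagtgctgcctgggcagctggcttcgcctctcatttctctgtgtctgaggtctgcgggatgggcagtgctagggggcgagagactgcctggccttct
Dct domain, highest pileup, chr14:118057307-118057507: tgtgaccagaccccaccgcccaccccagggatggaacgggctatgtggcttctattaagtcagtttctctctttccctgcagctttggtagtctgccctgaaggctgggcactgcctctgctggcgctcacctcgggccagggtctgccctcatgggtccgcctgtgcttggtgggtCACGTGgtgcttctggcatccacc

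Both Pax3 windows lay in an intron of Pax3 other than the first. Both Mitf windows lay in a first intron of Mitf. The Sox10 window lay in the first intron of the annotated transcript Gm10863, 13006 bp from the nearest TSS, and the Dct window was intergenic, 5005 bp from the nearest TSS. The highest peaks of the Pax3, Mitf and Sox10 domains held none of the 6 motifs within these 201 bases. The window of the Mitf domain of rank 33 held 1 match each to CATGTG and CACGTG, and the Pax3 window of most matches held 1 each to CTTTGAT and ACAATG.

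Over all member peaks, CATGTG was found in 14.7% of the windows of member peaks (95% Wilson interval 13.8 to 15.7), in 14.7% of those of single peaks and in 6.95% of those of common HP peaks within 3 kb of a TSS. ACAAAG was found in 15.7%, 16.9% and 9.99% of these windows, and CTTTGAT in 2.46%, 2.43% and 1.31%. The CACGTG share was 3.93% in member peaks, 4.15% in single peaks and 3.71% at promoters. ACAATG was found in 7.94% and TGANTCA in 6.54% of member windows, against 7.99% and 6.95% of single windows. Member and single windows had similar shares, and no test was made of them. Base composition moved with the difference from promoters, as the mean GC content was 51.8% in member windows, 52.2% in single windows and 62.6% at promoters, and its part in that difference was not tested. At least 1 CATGTG lay in a member window of 573 domains (47.2%) and at least 1 CTTTGAT in 126 (10.4%).

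Most domains were short. There were 580 domains of 3 peaks, 593 of 4 to 9 and 41 of 10 or more. These numbers count peaks of HP replicate 1, and HP replicate 2 did not always divide a domain in the same way. In the domains of rank 811, nearest Tcf7l2, and rank 830, nearest Slc24a4, 3 member peaks lay under 1 HP replicate 2 peak. When each pair of peaks had to overlap by 50% of both, 235 domains remained. The median length was 8076 bp, from 1246 to 75383 bp, and the domains spanned 12.96 Mb in all, of which the member peaks covered 25.6%. The median gap between neighbouring peaks of a domain was 745 bp. At the stitching limit the largest gap inside a domain was 12493 bp and the smallest gap between clusters was 12551 bp. The last 500 bp below the limit held 43 gaps and the first 500 bp above it held 32. The smallest domains, those of 3 peaks, had a median summed pileup of 42 fragments in HP replicate 1, and the pairs, just outside the rule, had a median of 27.

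Member peaks lay mostly inside genes. First introns held 37.5% of the member peaks and 24.7% of the single peaks, and 30.9% and 41.1% were intergenic. The median distance to a TSS was 12.8 kb for member peaks and 10.9 kb for single peaks, and these differences were not tested. Of the domains, 792 overlapped a protein-coding gene, 87 spanned the TSS of a protein-coding gene, and 101 lay more than 100 kb from any. The density was highest on chromosomes 11 and 15, with 8.19 and 7.88 domains per 10 Mb, and lowest on chromosome X, with 7 domains (0.409 per 10 Mb). The peaks themselves were also densest on chromosomes 11 and 15 and sparsest on X. All common distal HP peaks numbered 8.04 and 7.15 per Mb on chromosomes 11 and 15 and 0.649 per Mb on X.

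The domains were ranked by the summed pileup of their member peaks in HP replicate 1, which ran from 19 to 2330 fragments with a median of 56. The 121 highest domains held 29.1% of the total. The highest ranks were of a particular kind. Ranks 1 and 2, nearest to Pdia4, a disulfide isomerase of the endoplasmic reticulum, and to Ezh2, the enzyme that methylates lysine 27 of histone H3, both lay on chromosome 6 between 47651091 and 47772589. Their summits followed each other at median spacings of 4449 and 4334 bp. Windows of 601 bases around these summits shared 96.0% and 100% of their 21-base words with another window of the same domain. Rank 3, nearest to Tmem267 on chromosome 13, and rank 7, nearest to Gm21887 on chromosome X, shared 66.1% and 64.1%. Over all 1214 domains the median was 0%, and only 6 domains reached 10%, the other 2 being nearest to Atg7 (rank 50) and Mtap (rank 745). RefSeq places the gene of the 4.5S RNA Rn4.5s in the domain of rank 2, at 47654921 to 47655094 on the minus strand.

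These domains also had high local background. The median background under their member peaks in HP replicate 1, as the deposited lists imply it, was 50.5, 26.99 and 27.1 fragments in the domains of ranks 1, 2 and 3. It was at most 7.09 in the other domains, with a median of 1.09 over all 1214. Ranked by summed fold enrichment over background instead of pileup, the domain nearest Pdia4 fell to rank 158, that nearest Ezh2 to rank 64 and that nearest Tmem267 to rank 1034. The domain at Pax3 then ranked 1, Ppara 2, Ets1 3 and Fam53b 4. Of the 20 highest domains by pileup, 12 were also among the 20 highest by fold enrichment and 15 among the 20 highest by pileup in HP replicate 2. Over the 1214 domains the rank correlation (Spearman) of summed scaled pileup between the HP replicates was 0.774. Between HP replicate 1 and LP replicates 1 and 2 it was 0.600 and 0.750. These values are a description over domains that share the same libraries. What repeated sequence contributed to the pileup of ranks 1, 2, 3, 7, 50 and 745 was not tested.

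**Figure D1:**
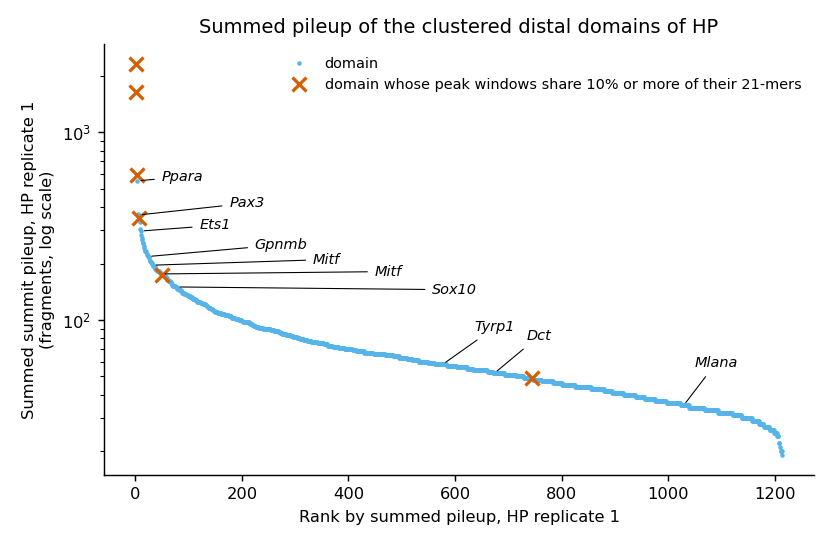
Summed pileup of each of the 1214 domains in HP replicate 1 (fragments, log scale) against its rank, with 1 point per domain. Crosses mark the 6 domains whose peak windows share at least 10% of their 21-base words, 4 of which hold ranks 1, 2, 3 and 7, and lines point to domains named by their nearest gene.

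Among the highest domains outside repeated sequence, the domain nearest Ppara, a nuclear receptor of lipid metabolism, held 20 member peaks over 43.0 kb of chromosome 15 (85657359 to 85700379). The summed scaled pileup of all distal peaks inside it was 26.1 and 34.1 in LP against 49.9 and 61.5 in HP. The HP values were both above the LP values, and the peaks numbered 12 and 22 in LP against 22 and 18 in HP.

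The domain at Pax3 had the most member peaks of all domains, 27, over 49.3 kb of chromosome 1 (78141787 to 78191131), all within the gene. Pax3 encodes a paired-box factor of the neural crest and the melanocyte lineage. Its summed scaled pileup was 9.24 and 19.996 in LP against 32.7 and 34.4 in HP, so HP was higher in both replicates and the LP replicates differed from each other by more than the HP replicates did. Of its 27 member peaks, 11 overlapped a peak of LP replicate 1 and 18 a peak of LP replicate 2. A further domain nearest Pax3, with 7 peaks 128 kb from the TSS, had summed values of 2.62 and 1.498 in LP against 8.36 and 12.6 in HP.

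The domain at Fam53b held 24 peaks over 61.0 kb of chromosome 7, with summed values of 6.98 and 22.3 in LP against 38.1 and 46.6 in HP. The domain at Ets1, an ETS transcription factor downstream of MAPK signalling, held 23 peaks over 52.3 kb of chromosome 9. Its values were 3.84 and 11.7 in LP against 27.8 and 42.0 in HP over 5 and 15 distal peaks in LP against 26 and 28 in HP. The domain at Morn1 and Ski, the latter a repressor of TGF-beta signalling, held 19 peaks with values of 4.88 and 16.2 in LP against 28.4 and 32.1 in HP. The domain nearest Cstad held 8 peaks, with 12.0 and 16.02 in LP against 29.4 and 49.7 in HP. In all 4 of these domains the lowest HP value lay above the highest LP value.

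The 3 domains of highest LP pileup were those of ranks 1, 2 and 3. The values nearest Pdia4 were 119 and 127 in LP against 203 and 201 in HP, and those nearest Ezh2 were 72.0 and 85.8 in LP against 143 and 130 in HP. Near Tmem267 the groups overlapped, with 34.6 and 56.9 in LP against 51.7 and 52.0 in HP. In these sums HP was higher than LP in replicate 1 and lower in replicate 2, over 4 and 4 distal peaks in LP against 5 and 2 in HP. By summit pileup HP was higher in each replicate. In the merged region from 119595679 the scaled values were 13.95 and 20.6 in LP against 15.9 and 32.9 in HP. In that from 119600998 they were 4.88 and 15.6 in LP against 10.9 and 19.1 in HP.

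The LP lists were not used to choose the domains. A peak of LP replicate 1 lay in 914 domains (75.3%) and a peak of LP replicate 2 in 1109 (91.4%). Both LP replicates had a peak in 870 domains, 1 of the LP replicates in 283, and neither in 61. In 10 domains every member peak overlapped a peak of both LP replicates, and in 100 domains no member peak overlapped an LP peak. Away from TSSs, the domains contained 1918 and 3446 LP peaks and 5947 and 5351 HP peaks. These covered 712 and 1755 kb in LP and 3485 and 4436 kb in HP, at a mean scaled pileup per peak of 1.17 and 1.11 in LP against 1.38 and 1.85 in HP. The domains were chosen on HP peaks, so that HP peaks are more numerous in them follows in part from the rule. A peak that is missing from a list shows only that the caller's threshold was not reached.

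The share of member peaks with an LP peak followed pileup. Of the member peaks, 26.9% overlapped a peak of LP replicate 1 (95% Wilson interval 25.7 to 28.1) and 48.2% a peak of LP replicate 2 (46.8 to 49.5). For single peaks the shares were 20.3% (19.1 to 21.5) and 38.02% (36.6 to 39.5). Member peaks were also higher, with a median scaled pileup of 1.82 in HP replicate 2 against 1.19 for single peaks, and of 1.13 against 1.04 in HP replicate 1. The HP replicate 2 value of a peak was the highest pileup among the HP replicate 2 peaks that it overlapped. Member peaks under 1 wide HP replicate 2 peak thus shared its value, and the bins below rest on these values. What this sharing contributed was not tested. When all common distal HP peaks were divided into 4 bins of equal size by their pileup in HP replicate 2, the shares in LP replicate 1 were 7.40% of member and 7.36% of single peaks in the lowest bin. They were 11.8% and 12.1% in the next bin, and 23.9% and 24.8% in the bin after that, and in these 3 bins the intervals overlapped. In the highest bin 48.7% of member peaks (46.5 to 51.0) and 60.6% of single peaks (56.7 to 64.3) had a peak in LP replicate 1, and 72.4% (70.3 to 74.4) and 80.9% (77.7 to 83.8) had a peak in LP replicate 2. In this bin the intervals of member and single peaks did not overlap in either LP library, and the difference was not tested. The intervals cover counting error only, and peaks of a domain are not independent.

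**Figure D2:**
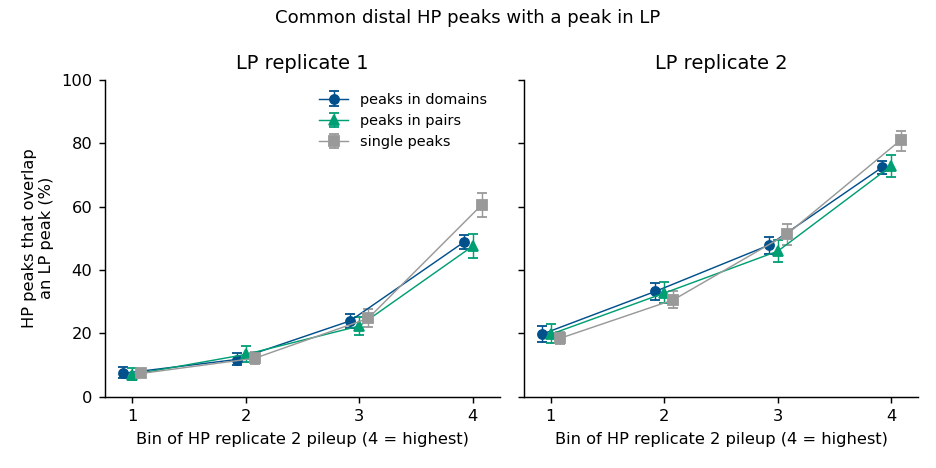
Share of common distal HP peaks that overlap an LP peak (%, with 95% Wilson intervals), by bin of pileup in HP replicate 2, for LP replicate 1 (left) and LP replicate 2 (right). Member peaks, pairs and single peaks lie close together in the lower 3 bins, and single peaks lie highest in the top bin, at 60.6% and 80.9%.

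Summed over all distal peaks of a domain, scaled pileup was higher in both HP libraries than in both LP libraries in 1152 of 1214 domains (94.9%), and the opposite held in 0. Over all 6904 clusters of common distal HP peaks, domains included, the share was 86.9%, and it was 90.8% over pairs and 83.2% over single peaks. All these clusters were chosen in HP, so the shares are a description. In the 858 domains with a distal peak in all 4 libraries, the median ratio of these sums, HP over LP, was 2.95, with 80% of the ratios between 1.84 and 5.10. The sums run over peaks called separately in each library, so the ratio joins the number of peaks with their height and is not a fold difference of signal. The mean scaled pileup per peak, given above, was 1.17 and 1.11 in LP against 1.38 and 1.85 in HP. The median was 3.52 in replicate 1 and 2.71 in replicate 2, and it was also 2.95 without the 6 domains of repeated sequence. Single domains were not tested, because HP peaks chose them and their sums move with what was called. With 2 libraries a population, the smallest two-sided p of an exact permutation test would be 0.333.

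**Figure D3:**
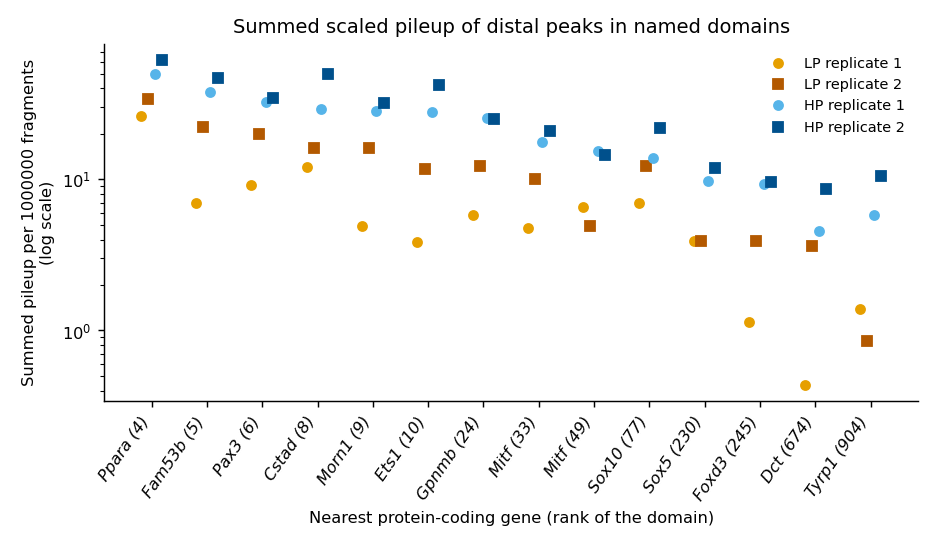
Summed scaled pileup of distal peaks (per 1000000 fragments, log scale) in 14 named domains, with 1 point per library (LP in orange, HP in blue, circles for replicate 1 and squares for replicate 2). The 14 domains were chosen by no fixed rule. They leave out the named domains in which the populations overlapped, such as those nearest Tmem267 and Mlana. In each of the 14 both HP points lie above both LP points, and at Pax3 they are 32.7 and 34.4 against 9.24 and 19.996.

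The 5 highest domains with no peak in either LP library were nearest to Soga1, Rgl1, Bcas3, Selenof and Polr2b. All were of modest pileup, with ranks from 258 to 706. The domain inside Soga1 on chromosome 2 (157069355 to 157073777) held 6 peaks within 4.42 kb, with a summed scaled pileup of 7.66 and 5.47 in HP. The domain inside Rgl1, an exchange factor for Ral GTPases, held 3 peaks, with 5.92 in HP replicate 1 and 5.96 in HP replicate 2. The domain nearest Polr2b lay within Igfbp7, which encodes a secreted binding protein, and had 5.92 and 9.96 in HP. The values of Bcas3 were 5.66 and 3.02 and those of Selenof, a selenoprotein of the endoplasmic reticulum, 5.66 and 6.10. The LP lists record nothing for these domains, so fragments below the threshold of peak calling are unknown.

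The same rule applied to the LP lists gave 2652 common distal peaks and 113 domains with 402 peaks. Of these, 96 (85.0%) overlapped a clustered domain of HP, and 95 HP domains (7.83%) overlapped one of LP. All 113 contained a common distal HP peak. When the common distal HP peaks were cut to the 2652 with the highest −log10 q-values, they gave 98 domains with 343 peaks. From equal numbers of common peaks, LP and HP thus gave 113 and 98 domains. The LP domains included those at Pdia4, Ezh2, Tmem267, Ppara, Pax3, Gpnmb and Sox10, and none at Mitf.

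Transcription factors of the melanocyte lineage were frequent among the nearest genes. The nearest protein-coding gene was taken as the gene with the closest TSS. Of 21728 protein-coding genes, 1022 (4.70%) were nearest to at least 1 domain. The share was 14 of 23 (60.9%) for melanocyte transcription factors, 9 of 22 (40.9%) for melanin and melanosome genes and 6 of 18 (33.3%) for melanocyte receptors and cAMP signalling. It was 7 of 22 (31.8%) for AP-1, stress and MAPK feedback genes, 5 of 20 (25%) for dedifferentiation and invasion genes and 2 of 23 (8.70%) for proliferation genes. Single peaks also had these genes as nearest, at 14.9% of all protein-coding genes, 60.9% of the transcription factors, 50% of the melanin and melanosome genes, 44.4% of the receptor and cAMP genes, 59.1% of the AP-1 and stress genes, 55% of the dedifferentiation genes and 34.8% of the proliferation genes. The median territory of a gene, measured to the midpoints of the gaps to its neighbours' TSSs, was 47.0 kb over all protein-coding genes, 363 kb for the melanocyte transcription factors, 221 kb for dedifferentiation genes, 195 kb for receptor and cAMP genes, 112 kb for melanin and melanosome genes, 83.6 kb for AP-1 and stress genes and 40.2 kb for proliferation genes, and its part in the shares was not tested. When the gene body had to overlap the domain, 9 of 23 transcription factors and 7 of 22 melanin and melanosome genes remained, against 3.20% of all genes.

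**Figure D4:**
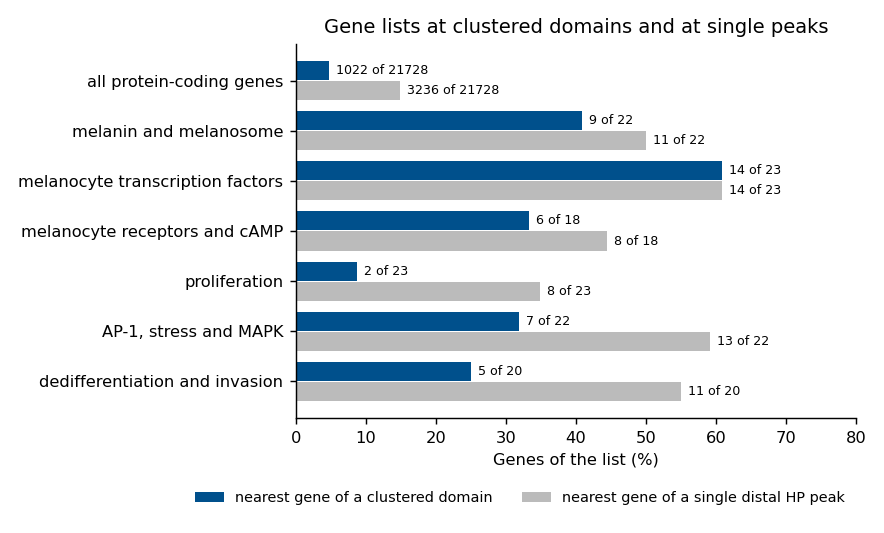
Share of the genes of each list (%) that are the nearest protein-coding gene of a clustered domain (blue) or of a single distal HP peak (grey), with the counts beside the bars. Melanocyte transcription factors reach 60.9% for both, and proliferation genes have the lowest share of the lists for domains, at 8.70%.

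Mitf was the nearest gene of 3 domains. The domain of rank 33 lay on chromosome 6 from 97978441 to 98014495, across a TSS in the body of Mitf, and held 13 member peaks. Its summed scaled pileup was 4.80 and 10.1 in LP against 17.6 and 20.98 in HP. The domain of rank 49, from 97881813 to 97899730 within the gene, held 8 peaks with values of 6.54 and 4.95 in LP against 15.3 and 14.5 in HP. The third, of rank 405, lay past the end of the gene, with 2.09 and 4.17 in LP against 6.10 and 4.77 in HP. In all 3 the HP values lay above the LP values, and in the last the gap between 4.17 and 4.77 was smaller than the spread within either population.

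Sox10, a transcription factor needed for the melanocyte lineage, had a domain of 5 peaks 12.0 kb from its TSS, on chromosome 15 from 79177212 to 79203110. Its summed values were 6.98 and 12.2 in LP against 13.8 and 22.0 in HP, and its highest peak was present in all 4 libraries. A domain nearest Polr2f that overlapped the Sox10 gene had 1.76 in LP replicate 2, no distal peak in LP replicate 1, and 4.96 and 3.37 in HP. The relatives Sox5 and Sox6, which modulate Sox10, had 3 and 5 domains. The highest domain of Sox5, in an intron, had 3.92 and 3.91 in LP against 9.75 and 11.9 in HP. In its domain of rank 1115 the populations overlapped, with 1.22 and 0.521 in LP against 2.79 and 1.19 in HP. The domains of Sox6 held 18 peaks in all, spread from within the gene to 181 kb from the TSS, and their ranks ran from 444 to 1207. In the highest of these the sums also overlapped, with 4.80 and 1.82 in LP against 5.83 and 4.49 in HP. They ran over 6 and 2 distal peaks in LP against 4 and 3 in HP. The merged region from 115623216 in this domain had scaled summit pileups of 1.22 and 1.11 in LP against 2.00 and 2.74 in HP.

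**Figure D5:**
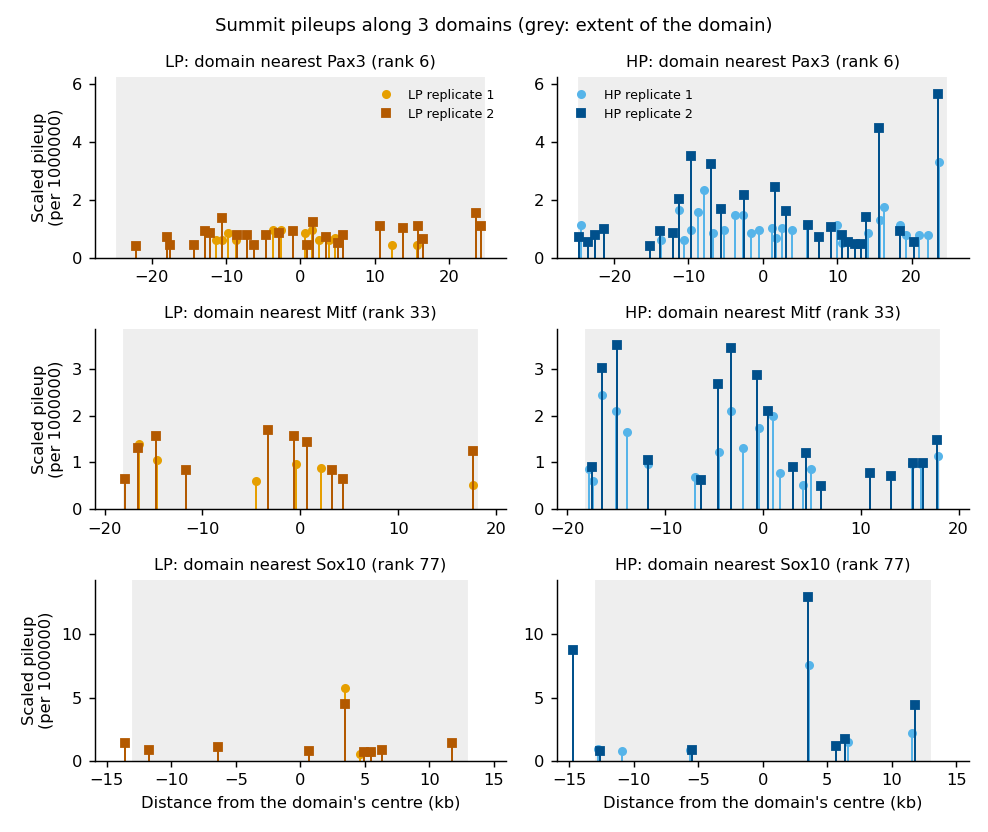
Summit pileup per 1000000 fragments of every peak that overlaps the domain at Pax3 (rank 6), Mitf (rank 33) or nearest Sox10 (rank 77), against distance from the domain's centre in kb, with LP on the left and HP on the right on the same vertical scale. The Pax3 domain is a row of many peaks, whereas a summit in all 4 libraries stands above the others in the Sox10 domain.

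Further domains lay nearest to Tfap2a, Irf4, Sox9, Zeb1, Zeb2, Tcf7l1, Tcf7l2, Mef2c and Foxd3. Irf4 activates Tyr together with MITF, and its domain of 4 peaks had summed values of 0.610 and 1.11 in LP against 4.01 and 5.12 in HP. The domain nearest Foxd3, a neural crest factor, lay 146 kb from its TSS and had 1.13 and 3.91 in LP against 9.32 and 9.61 in HP. Sox9 had a domain 350 kb from its TSS, with 2.88 and 5.73 in LP against 8.36 and 11.7 in HP. Zeb2, which promotes melanocyte differentiation, had 0.872 and 3.26 in LP against 6.01 and 7.09 in HP. In these 4 domains HP and LP did not overlap. Near Tcf7l1, a repressor of Wnt targets, LP replicate 2 reached 6.58 and HP replicate 1 was 7.92, so the populations lay close together.

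Among the genes of melanin and the melanosome, Gpnmb, a melanosomal glycoprotein that MITF activates, had the highest domain, of rank 24. It held 10 peaks over 39.2 kb of chromosome 6, with summed values of 5.84 and 12.3 in LP against 25.5 and 25.1 in HP. Tyrp1, a melanin synthesis enzyme, had 2 domains. Across its gene the values were 1.40 and 0.847 in LP against 5.83 and 10.5 in HP, over 2 and 1 distal peaks in LP and 7 and 10 in HP. In the other, 35.7 kb away, LP replicate 1 had no distal peak, LP replicate 2 had 1.24, and HP had 5.05 and 7.93. The domain across Dct, the dopachrome tautomerase of melanin synthesis, had 0.436 and 3.65 in LP against 4.53 and 8.63 in HP. These came from 1 and 4 distal peaks in LP against 5 and 8 in HP.

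Mlana, a melanosomal protein, had a domain in which the summed values overlapped, with 0.610 and 2.74 in LP against 3.05 and 1.54 in HP. Of the 2 HP replicate 2 peaks in this domain, only 1 was distal and entered the sum. The merged region there, tested as described below, had scaled summit pileups of 0.610 and 1.30 in LP against 1.48 and 5.19 in HP. Its log2 difference was 1.64 (limma adjusted p = 0.052), so it did not pass the threshold. The domains of Rab38, which carries enzymes to the melanosome, and Trpm1, a melanocyte cation channel, lacked a distal peak in 1 of the LP libraries. The domain nearest Slc24a5, an exchanger of the melanosome pathway, lay 118 kb from its TSS. This domain also had no distal peak in LP replicate 1, and had 1.04 in LP replicate 2 and 3.83 and 5.96 in HP. Slc24a4 and the copper transporter Atp7a completed the list. Tyr and Pmel had a peak at the TSS but were not the nearest gene of a clustered domain.

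In the other lists the domains of highest pileup lay at Ets1, Cd44 and Myc. Cd44, the hyaluronan receptor, had summed values of 3.75 and 5.80 in LP against 10.5 and 9.75 in HP. Myc had 3 domains, the highest of them 131 kb from its TSS, with 4.27 and 7.88 in LP against 10.3 and 15.8 in HP. The domain inside Ccnd3, a G1 cyclin, had 3.66 and 6.25 in LP against 8.79 and 13.7 in HP. A domain of each of these proliferation genes was also found with the rule on the LP lists. Nfe2l2, the regulator of antioxidant genes, had 2.35 and 3.32 in LP against 9.67 and 7.72 in HP. The domain inside Met, the HGF receptor, had 1.05 and 5.60 in LP against 10.3 and 12.8 in HP, and that inside Pde4d, a cAMP phosphodiesterase, had 0.698 and 2.74 in LP against 7.31 and 11.2 in HP.

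A test between HP and LP was made only for merged regions that all 4 lists contained, 12084 in all. Of 4027 merged regions in the domains, 1091 were of this kind, so the weaker LP sites were left out. In limma on the log2 scaled summit pileup, without a replicate block, 109 of these 1091 regions passed a Benjamini-Hochberg adjusted p of 0.05 with a higher value in HP (9.99%) and 0 with a lower one. The share was 4.01% over all regions tested, 8.6% over those more than 3 kb from a TSS and 5.53% over the 633 at single peaks. At an unadjusted p under 0.05 the member regions numbered 604 with higher (55.4%) and 0 with lower values in HP, against 36.2% of all regions with higher values, 50.1% of those more than 3 kb from a TSS and 43.8% of those at single peaks. The median log2 difference was 1.11 in member regions and 0.92 over all regions. Member regions were chosen in HP, which favours high HP values, and no difference between the sets was tested. With the replicate number as a block, 22 member regions (2.02%) were called, against 0.728% of all regions, 1.59% of those more than 3 kb from a TSS and 0.79% of those at single peaks. With each library centred on its median, limma called 0 in either direction, an unadjusted p under 0.05 was reached by 35 with higher and 31 with lower values, and the median was 0.10.

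The calls changed when a library was left out, with the lone library of a population then assumed to vary like the pair of the other. Without LP replicate 1, LP replicate 2 or HP replicate 2 limma called 0 member regions, with 185, 293 and 316 higher at an unadjusted p under 0.05 and median log2 differences of 1.06, 1.15 and 0.78. Without HP replicate 1 it called 763, at a median of 1.47. Both HP libraries were above both LP libraries in 895 of the 1091 member regions (82%), against 74.8% of all regions tested and 74.9% of those at single peaks.

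The 109 called regions lay in 104 domains, with the most in a single domain, 3, at Pax3. The smallest p belonged to a region nearest Fgfr2, a receptor of fibroblast growth factors, on chromosome 7 from 130000040 to 130001570. Its scaled pileup was 0.610 and 0.977 in LP against 4.09 and 4.35 in HP. The log2 difference was 2.45 (SE 0.54, limma adjusted p = 0.0208), and 1.44 after centring. A region nearest Foxn2, a forkhead factor, had 0.523 and 0.847 in LP against 3.40 and 3.79 in HP, a log2 difference of 2.43 (limma adjusted p = 0.0208). The region in the Ppara domain, from 85672571 to 85674868, had 0.698 and 1.17 in LP against 3.74 and 4.84 in HP, a log2 difference of 2.23 (limma adjusted p = 0.0329). A region nearest Bcl2, which blocks apoptosis, had 0.785 and 0.521 in LP against 2.87 and 2.88 in HP, and a log2 difference of 2.17 (limma adjusted p = 0.0329). The other 6 of the 10 with the smallest p lay nearest Slco3a1, Zfhx3, Hfe2, Tob1, Nceh1 and Kidins220, with log2 differences from 2.11 to 2.24. All 10 kept an adjusted p below 0.05 with the block, at most 0.0468, and none was called after centring. The SE was the same for every region, so the order by p is that of the log2 difference. The unscaled LP pileups were 7 and 15 fragments at Fgfr2, 6 and 13 at Foxn2, 8 and 18 at Ppara and 9 and 8 at Bcl2. At Tob1, Nceh1 and Kidins220 they were at least 10. Of the 742 member regions with a pileup of at least 10 in every library, limma called 0.

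In the domains at the melanocyte transcription factors and the melanin and melanosome genes, 46 regions in 25 domains could be tested. The log2 difference was above 0 in 45 of them (97.8%), with a median of 1.05, and 5 were called (10.9%). Over all member regions it was above 0 in 98.3%, with the median of 1.11 and the 9.99% of calls given above, and over all regions tested it was above 0 in 99.0%. In the Pax3 domain of rank 254 no tested region was called. In the Pax3 domain of rank 6, 3 of 8 regions were called, of which 2 stayed called with the block. The strongest of them, from 78181046 to 78183310, had scaled values of 0.436 and 1.11 in LP against 1.74 and 4.49 in HP, a log2 difference of 2.01 (limma adjusted p = 0.0358, and 0.0492 with the block). Of the 10 regions of the 3 Mitf domains, 1 was called, and it holds the window of the rank 49 domain shown above. Its log2 difference was 2.00 (limma adjusted p = 0.0358), or 0.99 after centring.

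In the named domains of the other lists 3 of 19 regions were called, 1 each at Ets1, Ccnd3 and Gna14. In the melanocyte and melanin domains above 5 of 46 were called. The share was 9.99% over all member regions and 4.01% over all regions tested, and no difference between the lists was tested. A region in the body of Gnaq, nearest to the TSS of Gna14, both G protein subunits, had 0.872 and 0.651 in LP against 1.65 and 3.79 in HP. Its log2 difference was 1.73 (limma adjusted p = 0.0475, and 0.0607 with the block). The Slc24a4 region, from the melanin and melanosome list, had 0.959 and 0.651 in LP against 2.00 and 4.14 in HP, a log2 difference of 1.86 (limma adjusted p = 0.042, and 0.0552 with the block). The 2 regions of the Sox10 domain had log2 differences of 1.19 and 0.96 and did not pass the threshold, nor did the 3 at Gpnmb, which lay between 0.97 and 1.16. Among the regions tested in the named domains of all these lists, the only value below 0 was near Tcf7l1, at −0.14. As limma gave every region the same variance, the SE was 0.54 for each region without the block and 0.56 with it.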

How the data were processed

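H3K27ac ChIP-seq peak lists of LP and HP cells, 2 libraries each, were analysed. Per the labels and the paper's methods, the authors converted reads with bcl2fastq 2.20, trimmed them with Trimmomatic 0.33, aligned them to mm10 with Bowtie2 2.5.1 and called narrow peaks with MACS 3.0.0b1 at a q-value cutoff of 0.05, keeping duplicates, against IgG of the same replicate number. The deposited pileup (signal at the summit) is unscaled, the deposited fold enrichment is the ratio of pileup plus 1 to local background plus 1, and the authors' −log10 q-values and −log10 p-values come from MACS. The labels give 1% formaldehyde, and the paper gives another strength. No per-sample value column was left out.

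Pileups were divided by the library's fragments and multiplied by 1000000. Depth was 11467942 to 15353176 fragments, with a median pileup of 7 and 11 in LP and 10 and 12 in HP peaks. TSSs came from all transcripts of GENCODE mouse release 21 for GRCm38. Sums in a domain used distal peaks of any library. Merged regions of the 4 lists took the highest summit pileup, and limma 3.58.1 in R 4.3.3 compared log2 scaled pileups over regions called in all 4 libraries. Replicate numbers paired the libraries, since the labels describe replicate sets with equal input DNA. The correlation of the replicate difference between LP and HP was 0.0153 over regions. The main model had no block. Overlap, stitching and limma were tested on simulated data.

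Named domains were the 10 of highest pileup, the 5 highest without an LP peak, the 3 with most peaks, the 3 of highest LP pileup, every domain nearest or overlapping a melanocyte transcription factor or melanin gene, up to 3 for each other list, and up to 10 called regions of smallest p. Of these, some are given as counts. The shared 21-base words, gene territories and LP shares in pairs were added later. Members and lists were chosen with earlier results of these data known. Sequences were read with samtools 1.23.1 from RefSeq GRCm38. Tables and figures were made in Python 3.11.15 (numpy 2.4.6, scipy 1.17.1, pandas 2.3.3 and matplotlib 3.10.9). Alternatives covered q-values, overlap, TSS distance, stitching, peak number, scaling and each replicate. Reads were not used here, so DiffBind and HOMER were not run.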

Additional observations from a re-analysis of the deposited data

How the results depend on the processing

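The number of domains, 1214, stayed within 1.5 times under other q-values, TSS distances, TSS sets, stitching distances, a fold enrichment of at least 3 and HP replicate 2 as the base (912 to 1584). It was 235 with an overlap of 50% of both peaks, 2661, 634 and 361 with at least 2, 4 or 5 peaks, 2976 to 3681 from a single HP replicate, 113 from the LP lists and 98 from as many HP peaks as in LP, the last chosen after seeing the data. The mean share of member peaks with an LP peak, 37.5%, was 19.9% to 48.2% when 1 library was left out, lowest without HP replicate 1. With pileups from a single HP or LP replicate (added after seeing the data) the median ratio of HP to LP was 2.46 to 3.88. Of the 20 highest domains, 12 remained by fold enrichment. With 50 bp on each side of the summit the motif shares were 7.64% (CATGTG), 2.11% (CACGTG), 1.19% (CTTTGAT), 7.79% (ACAAAG), 3.28% (ACAATG) and 3.0% (TGANTCA), as a shorter window holds fewer positions.

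The 109 member regions called by limma became 22 with the replicate block, 0 with centring, 0 with centring and the block together (at an unadjusted p under 0.05, 38 higher and 31 lower, added after seeing the data), 0 with quantile normalization (51 and 19), 0 with the mean summit pileup (452 and 0), 54 with a pseudocount of 1, 320 when the adjustment ran over distal regions only, and 0 of 742 with a pileup of at least 10 in every library (405 and 0). Leaving out 1 library gave 0 to 763. The cause of these shifts was not tested. Of 18 called regions in named domains or among the 10 of smallest p, 13 were still called with the block, and none changed sign in 205 alternative values. Of the 44 named domains with a ratio, leaving out 1 library moved 53 of 176 ratios by more than 1 SD between replicates. The block changed no other call among the named regions.

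The median pileup of a member peak was 13 fragments in HP replicate 1, and sites below threshold in LP have no value. Whether depth changes the domains was not tested.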

Other observations

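Among the genes on none of the lists above, Dst, Med13l and Msi2 were each nearest to 4 domains, and Gse1 to 5. The domains of Dst, which encodes the cytolinker dystonin, held 26 member peaks, more than those of Mitf, which held 25. Over all genes 155 were nearest to at least 2 domains and 26 to at least 3. Genes that had the closest TSS to a domain had a median territory of 121 kb, against 47.0 kb over all protein-coding genes. These genes were picked after their counts were seen.

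E-boxes of the CACGTG kind were found in 5 of 8 windows of the domain nearest Pdia4 and 5 of 9 nearest Ezh2, against 3.93% of all member windows. The windows of these domains share 96.0% and 100% of their 21-base words, so these matches cannot be counted as separate occurrences.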
